A study of Mus musculus with 4 samples.

Results

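Csf1r, Csf2ra, Csf2rb and Csf3r encode the receptors for the colony-stimulating factors, and Csf1 encodes a ligand of the first of them. These 5 genes were taken by symbol from the 32227 genes of the deposited tables and followed across 4 single-cell libraries of CD11b-selected cells from mouse cortex at postnatal day 15. All animals were wild type, and each had been injected in the cortex as a newborn with an adeno-associated virus. In 2 libraries the virus carried mCherry, a fluorescent protein used as the control, and in 2 it carried Hevin, the matricellular product of Sparcl1 that astrocytes secrete. Both were driven by GfaABC1D, an astrocyte promoter, and CD11b selection enriches for myeloid cells, so few of the cells measured here (20 to 68 astrocyte-gated cells per library) are of the type in which the promoter is active. Actinomycin D, triptolide and anisomycin, which block transcription and translation, were present during dissociation in every library. The labels do not give the number of animals per library, nor their sex. P-values between the virus groups measure the spread between these libraries. Those between cell classes, where the library is a block, measure the spread of class differences over the same libraries.

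In the GENCODE M21 annotation of GRCm38, Csf1 lies on chromosome 3 (107741048 to 107760469, minus strand), Csf1r on chromosome 18 (61100598 to 61132149, plus), Csf2ra on chromosome 19 (61223957 to 61228429, minus), Csf2rb on chromosome 15 (78325752 to 78353847, plus) and Csf3r on chromosome 4 (126024550 to 126044440, plus). All are protein-coding. Hmgxb3 overlaps Csf1r on the other strand, and whether the counting used strand is not given in the sources used here, so reads of that overlap cannot be told apart.

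As background, CSF-1 binds the receptor tyrosine kinase encoded by Csf1r, on which microglia and most tissue macrophages depend for survival, and in the brain IL-34 is a ligand of the same receptor. GM-CSF signals through the alpha chain encoded by Csf2ra paired with the common beta chain encoded by Csf2rb, which IL-3 and IL-5 receptors share, and this receptor acts through JAK2 and STAT5. G-CSF binds the receptor encoded by Csf3r, which is best known from neutrophils and their precursors.

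Of 61686 deposited barcodes, 61371 were kept, with 49781430 to 67832685 unique molecular identifiers (UMIs) per library and a median of 2329 to 4037 UMIs per kept cell. Cells were sorted into classes by fixed markers that hold none of the 5 genes. There were 14780 and 9035 microglia-gated cells in the mCherry group against 5657 and 5386 in the Hevin group. Cells with high Apoe and Ms4a7 and no Sall1 UMI (Apoe-high cells) numbered 25 and 16 against 7098 and 4211, so they were measured almost wholly in the Hevin libraries. Border-macrophage-gated cells numbered 725 to 1173 per library, MHC-class-II-high cells 116 to 254 and endothelial cells 146 to 297. Sparcl1 was 123 and 91.4 UMIs per 1000000 (CPM) over all cells of the libraries labelled mCherry and 86.4 and 78.4 CPM in those labelled Hevin, and in astrocyte-gated cells 5416 and 6703 against 5304 and 9952 CPM, so it did not separate the labels. Xist was 1.2 CPM in Hevin replicate 1 and 540 to 1210 CPM in the other 3 libraries, so the sex of the animals was not matched across libraries.

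Csf1, the ligand, had the fewest UMIs of the 5 and, among the classes with at least 20 cells in every library, was the only one highest outside the myeloid classes. Over all kept cells its level was 11.9 and 11.1 CPM with mCherry and 6.84 and 8.49 CPM with Hevin. In endothelial cells it was 30.1, 36.4, 21.2 and 28.7 CPM (mCherry replicates 1 and 2, then Hevin replicates 1 and 2, the order used throughout), from 88, 67, 32 and 44 UMIs. In microglia-gated cells it was 11.3, 9.81, 9.10 and 10.3 CPM. Every endothelial value lay above every microglia-gated value, and the difference was 1.497 ± 0.18 (log2, SE) with an adjusted p of 2.72e-09 in edgeR. Astrocyte-gated cells held 36.8, 40.7, 10.2 and 53.5 CPM from only 14, 7, 2 and 8 UMIs, each above the microglia-gated value of its library, although by little in Hevin replicate 1. The difference was 1.69 ± 0.35 (log2, edgeR adjusted p 0.000127, where 47.3% of genes were called), and it was called in all 10 alternatives at 1.08 (cells of at least 3000 UMIs) to 1.90 (DESeq2). Border-macrophage-gated cells had less, 5.61, 2.91, 4.56 and 4.27 CPM, below microglia-gated cells (log2 difference -1.39 ± 0.21, edgeR adjusted p 1.11e-06). MHC-class-II-high cells were at the floor, with 3, 4, 0 and 2 UMIs in all, and monocyte-gated cells had no Csf1 UMI in any library, which allows up to 24.1 to 63.1 CPM (3 counts per library) and so does not exclude the microglial level. Csf1 UMIs came from microglia-gated cells for 73.0% and 69.1% in the mCherry libraries, where endothelial cells, at most 1.67% of the cells, gave 10.9% and 12.2%.

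Csf1r had the most UMIs of the 5 and was highest in microglia-gated cells, with 3372, 3731, 2731 and 3387 CPM (3305 ± 417, SD, n = 4 libraries). After each cell was thinned to 1000 UMIs, 95.2% of microglia-gated cells held a Csf1r UMI, against 37.5% of endothelial cells, a type that should lack the gene (without thinning 99.6% and 86.5%). Border-macrophage-gated cells followed with 2796, 2877, 2279 and 2545 CPM. The level in Apoe-high cells was 1897 and 2161 CPM in the Hevin libraries. Each of these classes lay below microglia-gated cells, with log2 differences of -0.51 ± 0.14 (border macrophage, edgeR adjusted p 0.00195) and -0.54 ± 0.15 (Apoe-high, edgeR adjusted p 0.00598). The latter call was lost without Hevin replicate 1 (-0.59, adjusted p 0.0614) and under DESeq2 (-0.44, adjusted p 0.0533). Between these classes themselves the difference was -0.03 ± 0.15 (Apoe-high minus border macrophage, edgeR adjusted p 0.916), so their order was not resolved.

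MHC-class-II-high cells had much less Csf1r than microglia-gated, border-macrophage-gated and Apoe-high cells, at 977, 1080, 666 and 669 CPM. Monocyte-gated cells had 1140, 1115, 992 and 1075 CPM from 9 to 33 cells. In MHC-class-II-high cells the log2 difference from microglia-gated cells was -2.005 ± 0.14 (edgeR adjusted p 2.7e-14). Endothelial cells still held 708, 573, 425 and 318 CPM, which is 12.5% to 23.1% of the level over all cells of the same library. The microglial genes P2ry12, Tmem119 and Cx3cr1, the fractalkine receptor, stood at 10.8% to 18.8%, 12.9% to 21.2% and 11.3% to 18.8% of their all-cell level in the same endothelial cells. Within each library Csf1r lay above P2ry12 and Cx3cr1, and above Tmem119 except in Hevin replicate 2 (12.5% against 12.9%). Whether endothelial cells express Csf1r, and the source of these counts, was not tested. MHC-class-II-high cells exceeded endothelial cells by 0.76 ± 0.14 (log2, edgeR adjusted p 2.45e-05, where 54.8% of genes were called), at 26.2% to 32.3% of the all-cell level. P2ry12, Tmem119 and Cx3cr1 also stood higher in MHC-class-II-high than in endothelial cells of the same library, at 17.9% to 22.4%, 21.9% to 24.0% and 19.1% to 25.5% of their all-cell level. Csf1r lay above each of these 3 shares in every library, and their part in its difference from endothelial cells was not tested.

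**Figure D1:**
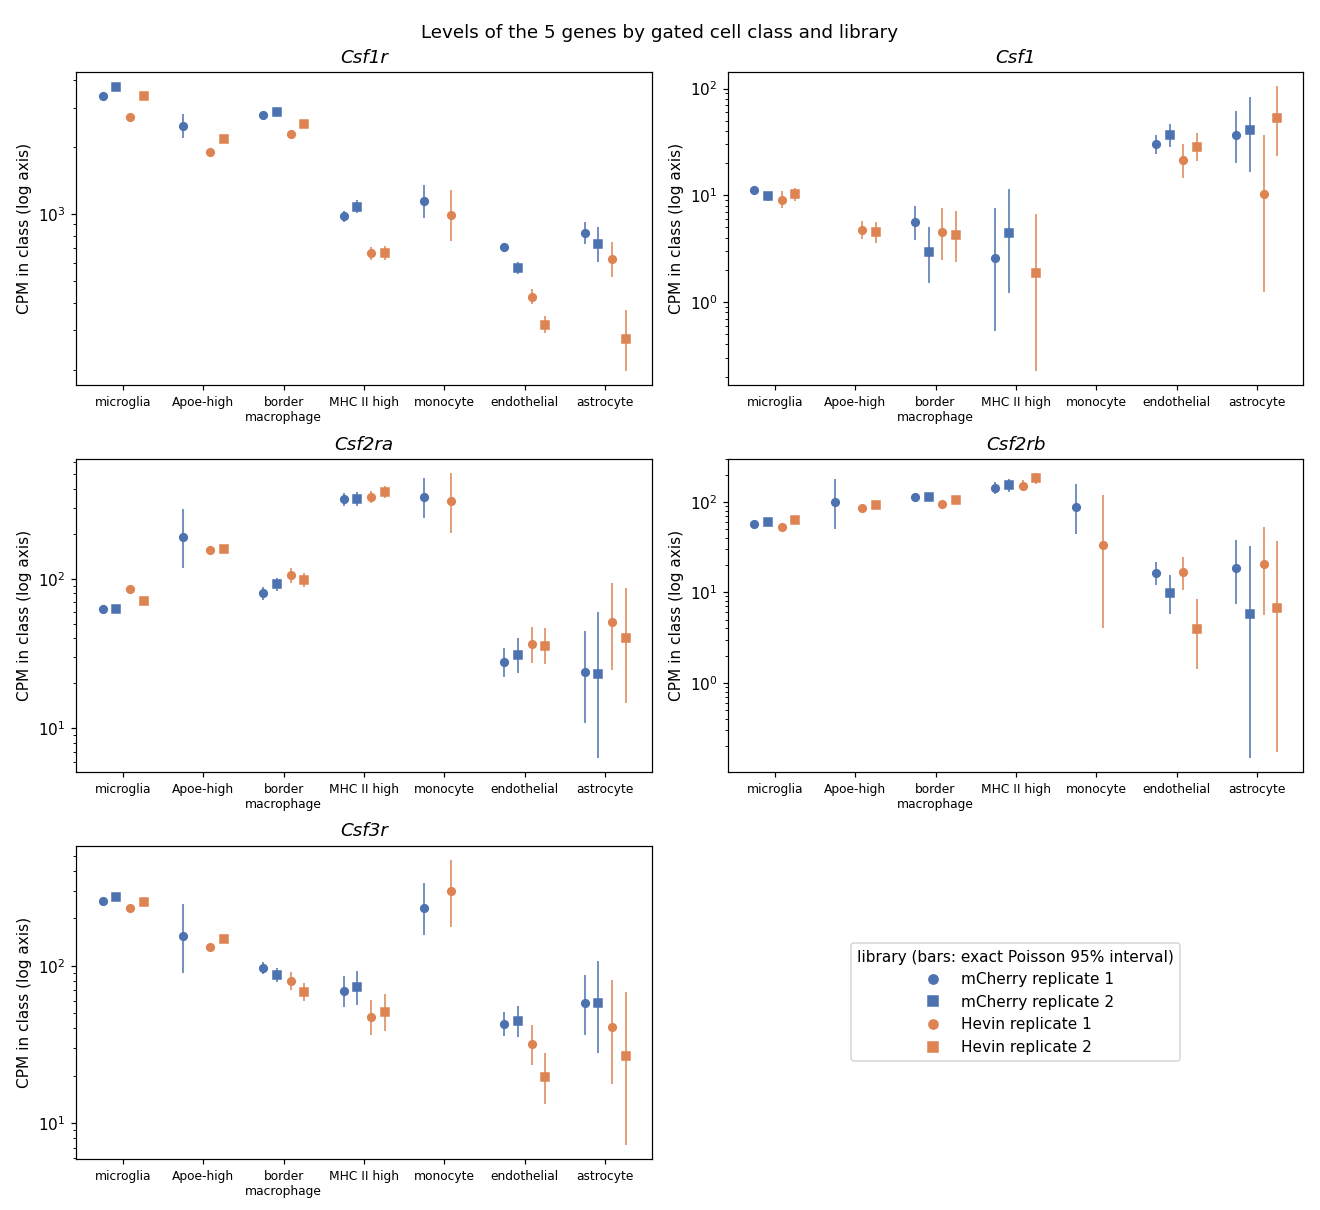
Level of each gene in CPM (log axis) in 7 gated classes, 1 symbol per library with its exact Poisson 95% interval, which covers counting error only; libraries with fewer than 20 cells of a class and levels of 0 are not drawn. Csf1r falls from microglia to MHC-class-II-high cells while Csf2ra runs the other way, and Csf1 is highest in endothelial and astrocyte-gated cells.

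Csf2ra and Csf3r, which went opposite ways between microglia-gated and MHC-class-II-high cells, are the members whose promoter windows are printed. The windows are the 250 bases before the RefSeq start of each gene (GRCm38.p6), 5′ to 3′ on the gene's strand, with the letters GAGGAA (or TTCCTC, the same on the other strand) in capitals. GAGGAA is a core bound by PU.1, the myeloid transcription factor encoded by Spi1. The Csf2ra window is chr19:61228419-61228668 on the minus strand, and the Csf3r window is chr4:126024409-126024658 on the plus strand.
Csf2ra: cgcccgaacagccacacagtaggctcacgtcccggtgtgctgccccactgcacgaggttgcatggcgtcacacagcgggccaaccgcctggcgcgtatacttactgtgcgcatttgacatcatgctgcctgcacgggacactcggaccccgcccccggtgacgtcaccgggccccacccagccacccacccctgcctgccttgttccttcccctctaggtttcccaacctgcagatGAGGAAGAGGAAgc
Csf3r: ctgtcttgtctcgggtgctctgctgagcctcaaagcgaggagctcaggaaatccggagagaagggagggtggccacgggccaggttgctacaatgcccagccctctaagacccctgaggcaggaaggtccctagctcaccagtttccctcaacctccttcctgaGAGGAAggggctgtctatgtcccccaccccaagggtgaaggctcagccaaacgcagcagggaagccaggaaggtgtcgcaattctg
The Csf2ra window holds the core 2 times in tandem, beginning 14 and 8 bases before the RefSeq start, and the Csf3r window holds it 1 time, 86 bases before the RefSeq start. The GENCODE starts of both genes (61228429 for Csf2ra and 126024550 for Csf3r) lie within these windows. By that annotation the Csf3r core lies inside the gene, and the Csf2ra cores lie across its start and just inside it. Of 32851 windows of this length in the table, 23.3% hold it at least 1 time, so a match is common and is a description of the letters only. The table matched 3 of the 5 genes, and the Csf1 window holds no copy of these letters.

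Csf2ra, the ligand-specific chain of the GM-CSF receptor, was lowest in microglia among the myeloid classes and highest in MHC-class-II-high and monocyte-gated cells. Microglia-gated cells had 62.6, 62.5, 86.0 and 71.6 CPM. MHC-class-II-high cells had 341, 343, 351 and 382 CPM (354 ± 18.7, SD, n = 4 libraries), and every one of these exceeded every other class value that rests on at least 100 cells. The log2 difference from microglia-gated cells was 2.33 ± 0.08 (edgeR adjusted p 4.85e-24). Monocyte-gated cells had 353, 210.5, 331 and 219 CPM from 10 to 44 UMIs and differed from microglia-gated cells by 1.96 ± 0.22 (edgeR adjusted p 1.52e-08, where 14.2% of genes were called). At 1000 UMIs per cell a Csf2ra UMI was found in 29.6% of MHC-class-II-high cells, 7.0% of microglia-gated cells and 2.5% of endothelial cells (without thinning 80.8%, 20.2% and 20.5%, at median depths of 4794 to 7225, 2084 to 3957 and 3744 to 6127 UMIs). Endothelial Csf2ra was 27.7, 30.9, 36.5 and 35.8 CPM, 27.9% to 43.5% of the all-cell level and so above the shares of the microglial genes there.

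Apoe-high cells lay between these classes for Csf2ra, with 155 and 158 CPM in the Hevin libraries. The 25 such cells of mCherry replicate 1 gave 191 CPM from 21 UMIs, and the 16 of mCherry replicate 2, too few for the test, gave 88.8 CPM from 7 UMIs. The log2 difference was 1.08 ± 0.08 from microglia-gated cells (edgeR adjusted p 5.1e-13) and 0.84 ± 0.09 from border-macrophage-gated cells (edgeR adjusted p 1.21e-09, where 38.7% of genes were called). MHC-class-II-high cells in turn exceeded them by 1.25 ± 0.09 (edgeR adjusted p 1.11e-13, where 40.1% of genes were called). Border-macrophage-gated cells had 80.1, 91.9, 106 and 98.9 CPM, only 0.24 ± 0.07 above microglia-gated cells on the log2 scale (edgeR adjusted p 0.00562). That small difference was lost with no filter on low counts (0.19, adjusted p 0.0838) and without Hevin replicate 2 (0.21, adjusted p 0.0515).

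Csf2rb, the shared beta chain, was likewise lower in microglia-gated than in MHC-class-II-high cells, with Apoe-high and border-macrophage-gated cells between them. It was 57.0, 59.4, 53.4 and 62.5 CPM in microglia-gated cells and 143, 153, 151 and 182 CPM in MHC-class-II-high cells, without overlap. The log2 differences from microglia-gated cells were 1.43 ± 0.11 in MHC-class-II-high cells (edgeR adjusted p 1.41e-13), 0.71 ± 0.09 in border-macrophage-gated cells (edgeR adjusted p 5.02e-08) and 0.68 ± 0.11 in Apoe-high cells (edgeR adjusted p 4.6e-06). Border-macrophage-gated cells had 114, 113, 94.2 and 106 CPM and Apoe-high cells 86.8 and 93.5 CPM in the Hevin libraries. Their difference of -0.03 ± 0.12 (Apoe-high minus border macrophage, edgeR adjusted p 0.897) was within the error. Monocyte-gated cells varied widely, at 88.3, 168, 33.1 and 346 CPM from 11, 8, 2 and 19 UMIs, and no difference from microglia-gated cells was called over the 2 libraries with at least 20 of them (-0.10 ± 0.50, edgeR adjusted p 0.914). In endothelial cells Csf2rb was low, at 16.4, 9.77, 16.6 and 3.91 CPM. These are 26.6%, 15.3%, 22.0% and 4.90% of its all-cell level, shares that overlap those of Csf1r there, and the source of these counts was not tested. The longest annotated transcripts of Csf2rb and its neighbour Csf2rb2, the IL-3-specific beta chain, are 88.7% identical over 4800 aligned columns, and the last 500 bases of Csf2rb are 79.6% identical to their best match in Csf2rb2. Reads may therefore have been split between them, and Csf2rb levels are uncertain to that extent. Csf2rb2 itself was 31.2, 33.3, 23.7 and 33.1 CPM in microglia-gated cells, and its log2 difference in MHC-class-II-high cells was -0.07 ± 0.13 (edgeR adjusted p 0.730).

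Csf3r, the G-CSF receptor, was a microglial transcript in these libraries as well as a neutrophil one. Microglia-gated cells had 258, 272, 232 and 255 CPM (254 ± 16.6, SD, n = 4 libraries). At 1000 UMIs per cell 22.5% of them held a Csf3r UMI, against 4.1% of endothelial cells (without thinning 53.7% and 22.5%). The few neutrophil-gated cells, 9, 4, 13 and 3 per library, held 645, 442, 1329 and 440 CPM from 20, 12, 32 and 4 UMIs, above the microglia-gated value of the same library in each case, and were too few to test. Monocyte-gated cells had 233, 337, 298 and 182 CPM, and their difference from microglia-gated cells, -0.41 ± 0.24, was not called (edgeR adjusted p 0.298).

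Border-macrophage-gated cells had little Csf3r, 96.6, 87.8, 80.2 and 68.1 CPM, which is -1.79 ± 0.08 from microglia-gated cells on the log2 scale (edgeR adjusted p 1.27e-19). Apoe-high cells held more of it, 132 and 147 CPM in the Hevin libraries. They were below microglia-gated cells (-0.72 ± 0.10, edgeR adjusted p 1.44e-07) and 1.08 ± 0.10 above border-macrophage-gated cells (edgeR adjusted p 9.47e-11). MHC-class-II-high cells had 68.6, 73.1, 47.5 and 51.1 CPM, 28.5% to 30.9% of the all-cell level, which exceeded endothelial cells by 0.77 ± 0.15 (edgeR adjusted p 4.61e-05). The shares of P2ry12, Tmem119 and Cx3cr1 in MHC-class-II-high cells, given with Csf1r, were also above their endothelial shares but below that of Csf3r in every library. Endothelial cells stood at 10.9% to 20.7% of the all-cell level for Csf3r, within the range of these microglial genes when all libraries are pooled. Within mCherry replicate 2 (18.8%) and Hevin replicate 1 (20.7%), Csf3r lay above P2ry12, Tmem119 and Cx3cr1. Whether endothelial cells express Csf3r, and the source of these counts, was not tested.

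**Figure D2:**
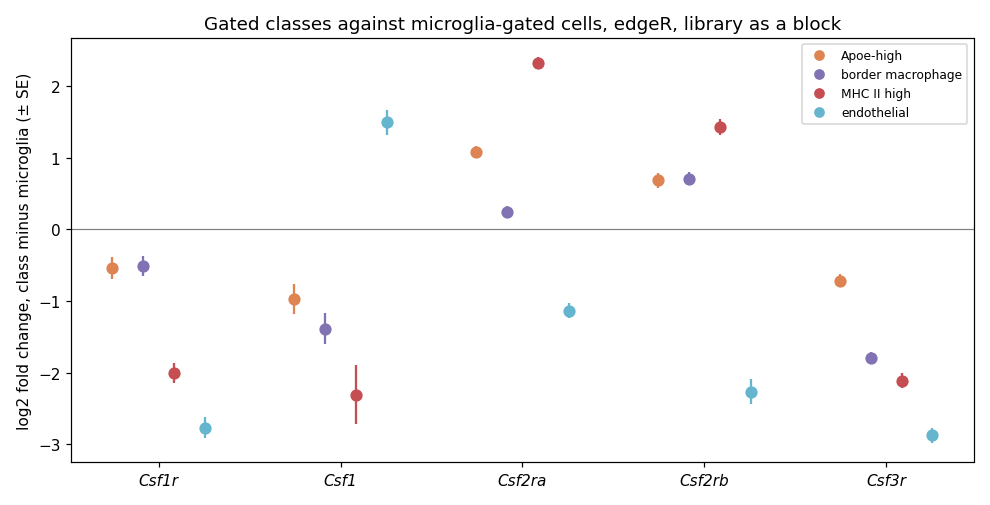
Log2 difference of each gene between a gated class and microglia-gated cells (points, with SE bars) from 1 edgeR fit over class sums with the library as a block. Csf2ra and Csf2rb lie above 0 and Csf1r, Csf1 and Csf3r below 0 in Apoe-high, border-macrophage and MHC-class-II-high cells, and Csf1 alone lies above 0 in endothelial cells.

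All 5 genes passed the threshold in each of the 4 comparisons drawn there, against backgrounds of 32.3% of 14345 genes for Apoe-high, 53.1% for border-macrophage-gated, 50.3% for MHC-class-II-high and 62.9% for endothelial minus microglia-gated cells. These comparisons share the microglia-gated sums, so their directions are not independent of each other. Leaving out each library in turn ended the Csf1r and Csf1 calls in Apoe-high cells (Csf1 without Hevin replicate 2, -0.76, adjusted p 0.0687) and the Csf2ra call in border-macrophage-gated cells. It ended no other call in these classes.

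The balance between the CSF-1 and GM-CSF receptor transcripts separated microglia-gated, border-macrophage-gated, Apoe-high and MHC-class-II-high cells within every library where they were measured. Microglia-gated cells held 53.9, 59.7, 31.8 and 47.3 Csf1r UMIs per Csf2ra UMI, and border-macrophage-gated cells 34.9, 31.3, 21.6 and 25.7. Apoe-high cells held 12.2 and 13.7 in the Hevin libraries and 13 in mCherry replicate 1. MHC-class-II-high cells held 2.86, 3.15, 1.90 and 1.75, and monocyte-gated cells 3.23 and 3 in the libraries with at least 20 of them. Endothelial cells held 25.6, 18.5, 11.7 and 8.89, near the Apoe-high value in Hevin replicate 1. In each library the order was microglia, border macrophage, Apoe-high where measured, then MHC-class-II-high. The ratio of Csf1r to Csf3r UMIs behaved otherwise. It was 11.8 to 13.7 in microglia-gated cells, 13.1 to 14.8 in MHC-class-II-high cells, 14.4 and 14.7 in Apoe-high cells of the Hevin libraries and 12.9 to 16.6 in endothelial cells, and it was higher in border-macrophage-gated cells, at 28.4 to 37.4. Monocyte-gated cells lay lowest, with 4.90 and 3.33 in the libraries with at least 20 of them.

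**Figure D3:**
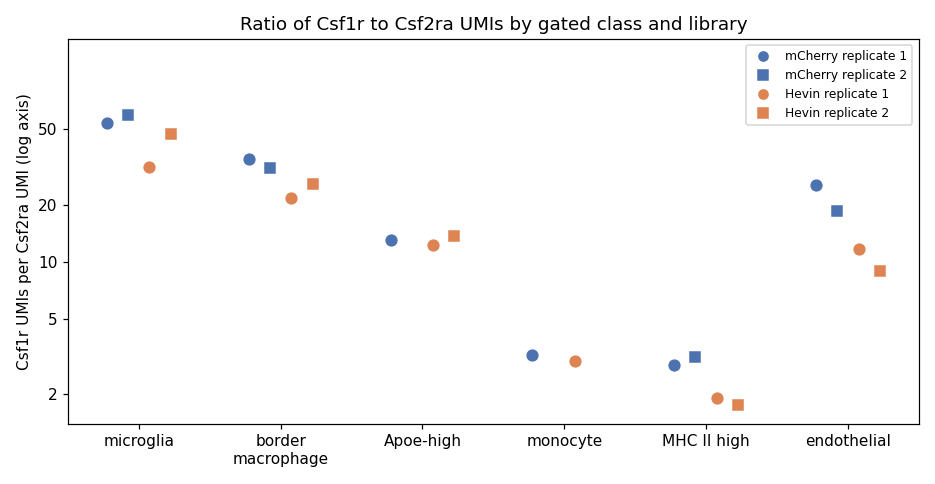
Csf1r UMIs per Csf2ra UMI (log axis) in 6 gated classes, 1 symbol per library with at least 20 cells of the class. The ratio runs from 31.8 to 59.7 in microglia-gated cells down to 1.75 to 3.15 in MHC-class-II-high cells, and the Hevin libraries lie below the mCherry libraries in every class measured in all 4.

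Between the virus groups, over all kept cells, Csf2ra and Csf2rb were higher in the Hevin libraries and no member was called lower. Csf2ra was 69.9 and 71.1 CPM with mCherry and 131 and 118 CPM with Hevin, a log2 difference of 0.94 ± 0.08 (edgeR adjusted p 0.00102). Csf2rb was 61.7 and 63.8 against 75.5 and 79.7 CPM, a difference of 0.42 ± 0.07 (edgeR adjusted p 0.00952). Csf1r was 3065 and 3378 against 2061 and 2552 CPM, and its difference of -0.37 ± 0.13 did not pass (edgeR adjusted p 0.126). Csf1 (-0.47 ± 0.13, adjusted p 0.0722) and Csf3r, at 226 and 237 against 154 and 179 CPM (-0.36 ± 0.09, adjusted p 0.0540), did not pass in edgeR either. In this comparison 11.1% of 19119 genes were called, 6.85% higher and 4.3% lower. Scaling by total counts alone moved the median of all genes by -0.11 log2 units, turned the share of calls that were higher from 61.4% to 38.9%, and brought Csf1 (-0.59, adjusted p 0.0384) and Csf3r (-0.47, adjusted p 0.0241) past the threshold. Csf1r, Csf1 and Csf3r also passed under other alternatives, given with the dependence on processing, so whether they are called depends on the setting.

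The sum over all cells also changes with the mix of classes, which differed between the groups. Microglia-gated cells held 69.0% and 68.6% of Csf2ra UMIs with mCherry and 15.8% and 22.4% with Hevin. With Hevin, Apoe-high cells held 48.0% and 43.5% of Csf2ra UMIs and 46.5% and 38.0% of Csf2rb UMIs, and with mCherry less than 1% of either. Without the Apoe-high-gated cells, an alternative chosen after seeing the data in which 2.99% of 18628 genes were called, Csf2ra was still higher (0.65, edgeR adjusted p 0.0194), and Csf2rb was no longer called (0.22, edgeR adjusted p 0.187). Cells that passed no gate, 5.78% to 6.48% of the mCherry and 17.6% to 26.7% of the Hevin libraries, remained in that sum, with 98.1, 105, 132 and 134 CPM of Csf2ra.

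**Figure D4:**
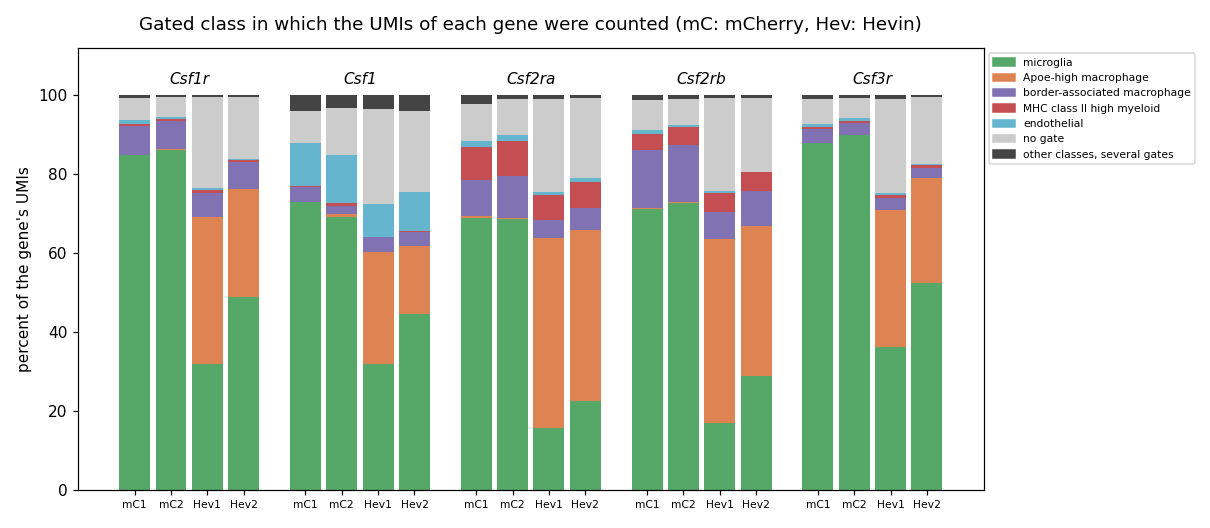
Percent of each gene's UMIs (stacked bars from 0 to 100) found in each gated class, 1 bar per library. Microglia-gated cells hold 68.6% to 89.9% of the UMIs of every gene in the mCherry libraries and 15.8% to 52.5% in the Hevin libraries, where Apoe-high cells hold 17.3% to 48.0%.

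Within microglia-gated cells none of the 5 was called, where 0.183% of 16941 genes were. DESeq2 likewise called none of the 5, and the unadjusted p was below 0.05 for Csf2ra alone. Csf2ra was 62.6 and 62.5 CPM with mCherry and 86.0 and 71.6 CPM with Hevin, a log2 difference of 0.38 ± 0.10 (edgeR adjusted p 0.485), and it passed with no filter on low counts (0.36, adjusted p 0.00762). In the same cells Ms4a7 was 14.3 and 9.65 against 130 and 89.7 CPM and Apoe 1552 and 1312 against 5700 and 4250 CPM, so genes of the Apoe-high class moved with Csf2ra there, and their part in the difference was not tested. The other 4 differed by -0.17 ± 0.13 (Csf1r), -0.07 ± 0.14 (Csf1), 0.04 ± 0.09 (Csf2rb) and -0.08 ± 0.08 (Csf3r). In border-macrophage-gated cells none of the 5 was called either, where 0.433% of 12002 genes were. Csf2ra differed there by 0.30 ± 0.11 (edgeR adjusted p 0.467) and Csf3r by -0.28 ± 0.11 (edgeR adjusted p 0.557). Both had an unadjusted edgeR p below 0.05. The difference of the virus effect between these classes was called for none of the 5, where 0.402% of 14913 genes were. In that interaction Csf3r was at -0.21 ± 0.13 and Csf2ra at -0.08 ± 0.12. Counts were also simulated with a fixed dispersion that was not estimated from these libraries, and changes were placed only in genes above a minimum count. There the fit in microglia-gated cells called 74% of genes changed 2-fold and 99% of those changed 4-fold. The recovery at the real spread was not measured, and smaller changes could be missed.

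**Figure D5:**
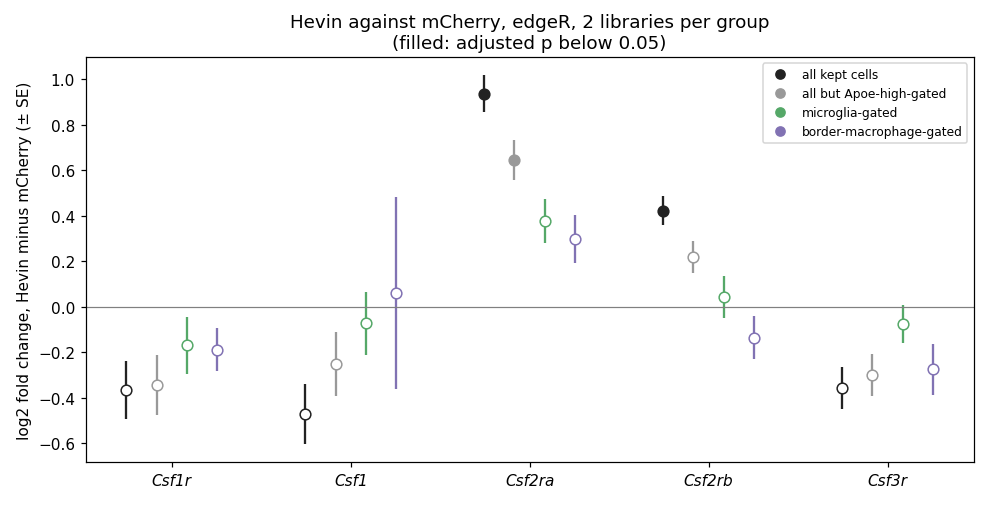
Log2 difference, Hevin minus mCherry (points, with SE bars), from edgeR with 2 libraries per group; filled points have an adjusted p below 0.05. Csf2ra lies above 0 in all 4 sums and is called with and without the Apoe-high-gated cells, and no gene is called within microglia-gated or border-macrophage-gated cells.

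The other ligands of these receptors were nearly absent from the sample. Over all kept cells Csf2, which encodes GM-CSF, had no UMI in any library, which allows up to 0.0443 to 0.0604 CPM (3 counts per library), and Csf3, Il3 and Il5 had at most 1 UMI per library. Il34, the other ligand of the CSF-1 receptor, was 3.68, 2.96, 2.82 and 3.04 CPM and did not differ beyond its error (-0.07 ± 0.18, edgeR adjusted p 0.885). Among receptor partners, Il3ra, the IL-3 receptor alpha chain, was 8.38, 8.14, 7.85 and 10.3 CPM over all cells (0.25 ± 0.15, edgeR adjusted p 0.385), and Il5ra had 4 to 8 UMIs per library. Il3ra was higher in MHC-class-II-high than in microglia-gated cells, by 2.36 ± 0.22 (edgeR adjusted p 2.8e-11), as the Csf2 receptor chains were.

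Of 24 signalling genes below the CSF-1 receptor, none rose and 1 fell between the virus groups over all kept cells, with a list median of 0.0088 against 0.0023 for all genes tested, of which 6.85% were called higher and 4.3% lower, so 1 of 24 is near that background. The gene that fell was Fyn, a Src-family kinase, at 51.1 and 55.3 against 26.3 and 30.5 CPM (-0.79 ± 0.09, edgeR adjusted p 0.00264). In microglia-gated cells Fyn was 49.8, 53.6, 44.2 and 45.9 CPM and was not called (-0.15 ± 0.08, edgeR adjusted p 0.971), and in Apoe-high cells it was 7.94 and 6.22 CPM in the Hevin libraries, -2.65 ± 0.13 from microglia-gated cells (edgeR adjusted p 1.5e-17). Of 8 transcription factors of the Csf1r and Csf3r genes in myeloid cells, 2 rose and none fell over all kept cells (list median 0.10), against the same 6.85% and 4.3% of all genes, and 2 genes are too few to set this list apart. They were Ets2 (0.69 ± 0.15, edgeR adjusted p 0.0302) and Cebpb, which encodes a CCAAT-binding factor (0.42 ± 0.09, edgeR adjusted p 0.0336). Spi1 itself was 371, 334, 349 and 315 CPM, with overlapping groups. No gene of any of the 5 lists was called in microglia-gated cells.

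Of 11 signalling genes below the Csf2 and Csf3 receptors, none was called between the virus groups over all kept cells (list median -0.01). Among the classes with at least 20 cells in every library, the Csf2 receptor chains were highest in MHC-class-II-high cells. There 6 of the 11 signalling genes rose and 2 fell against microglia-gated cells (list median 0.53, against -0.16 for all genes tested, of which 21% were called higher and 29.3% lower). The genes named next were chosen after their values were seen. Pim1, a kinase, was 162, 138, 105 and 115 CPM in MHC-class-II-high cells and 3.8 to 4.5 CPM in microglia-gated cells (5.00 ± 0.14, edgeR adjusted p 4.6e-26). Cish, a signalling inhibitor, was 33.9, 41.0, 20.4 and 26.9 CPM against 1.1 to 1.4 CPM (4.59 ± 0.24, edgeR adjusted p 1.7e-17). Socs2, of the same inhibitor family, rose by 3.05 ± 0.24 (edgeR adjusted p 3.4e-13), Jak2 by 1.69 ± 0.10, Stat5a by 1.62 ± 0.16 and Stat5b by 0.53 ± 0.11. The 2 that fell were Bcl2l1, a survival gene (-1.48 ± 0.17), and Stat3 (-0.28 ± 0.09). Beside its gate markers, the 10 leading genes of this class included Ear2, Ccr2 and Cd209a, and monocyte markers summed to 941 to 1041 CPM in it against 16.3 to 26.0 CPM in microglia-gated cells. The part of cell type in these differences was not tested.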

How the data were processed

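For each of the 4 libraries, made with PIPseq per the labels' protocols, the deposited values are whole UMI counts of every gene in every barcode. Per the submitters' processing notes, the build named is mm10. How reads were aligned, annotated and called as cells is not given in the sources used here, and the lowest total per deposited barcode was 965 to 2993 UMIs, differing by library. Cells were kept at 500 UMIs, 300 genes and at most 10% mitochondrial UMIs, which removed 315 barcodes. No doublet caller was run. Libraries shared 21 barcodes over all pairs.

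A cell entered a class when its summed marker UMIs per 10000 and the number of markers detected reached fixed minima (microglia 100 and 4, border macrophage 120 and 4, MHC class II 150 and 3, monocyte 20 and 2, neutrophil 100 and 3, endothelial 50 and 3, astrocyte 100 and 3, mural 50 and 2), and cells passing more than 1 gate were left out. Apoe-high cells had at least 200 Apoe UMIs per 10000, a Ms4a7 UMI, no Sall1 UMI and too few markers for the macrophage gates (below 100 microglial and 80 border macrophage). These minima were chosen with the data in view, without regard to the 5 genes. Cells within 10% of the microglia minimum numbered 548 to 1594 per library.

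Counts were summed per library, or per library and class with at least 20 cells, and tested over all genes with edgeR 4.0.16 in R 4.3.3 (quasi-likelihood test, TMM, filterByExpr, Benjamini-Hochberg adjustment, threshold 0.05). Classes were compared in 1 fit with the library as a block, and pairs of classes other than those with microglia were added after seeing the data. DESeq2 1.42.0 was an alternative. CPM in the text are plain. Shares of cells with a UMI were taken after thinning to 1000 UMIs, which left out 336 cells of Hevin replicate 1 and none elsewhere, and are means over libraries. Intervals and limits from a count of 0 (3 counts) cover counting error only. The fits were tested on simulated data. All 5 genes were named in every fit. Of 51 pathway genes in 5 lists, those past the threshold over all kept or microglia-gated cells (at most 4 per list and fit) and every ligand and partner were named, with others marked where used. The genes and lists were chosen with earlier results of these data known.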

Additional observations from a re-analysis of the deposited data

How the results depend on the processing

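Of 668 values of the 5 genes under alternatives, 639 stayed on their side of the threshold, 18 passed only under the alternative, 11 lost the call, and no called value changed sign. Over all kept cells the number of genes called was 2131, 1323 with cells of at least 3000 UMIs, 557 without Apoe-high-gated cells, and 1632 to 2599 without 1 library. Csf1r (-0.37, not called) passed under DESeq2 (-0.38), at a mean of 10 CPM or more (-0.38) and without Hevin replicate 2 (-0.52), and ranged from -0.52 to -0.23 without 1 library. Csf1 (-0.47, not called) passed with total counts (-0.59), DESeq2 (-0.48), no filter (-0.48) and without Hevin replicate 2 (-0.62), with -0.62 to -0.33 without 1 library. Csf3r (-0.36, not called) passed with total counts (-0.47), DESeq2 (-0.37), no filter (-0.36), a mean of 10 CPM or more (-0.37), and without mCherry replicate 1 (-0.40) or Hevin replicate 2 (-0.46), with -0.46 to -0.26 without 1 library. Csf2ra kept its call in all 13 alternatives. Csf2rb lost it without Apoe-high-gated cells (0.22).

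In microglia-gated cells 31 genes were called, 151 under DESeq2, 350 with no filter, 11 with a stricter gate and 47 to 147 without 1 library, and Csf2ra passed with no filter (0.36). In border-macrophage-gated cells 52 were called, 255 with no filter and 114 to 317 without 1 library. For Apoe-high minus microglia-gated cells 4634 were called and 2929 to 4435 without 1 library. There Csf1r lost its call under DESeq2 (-0.44) and without Hevin replicate 1 (range -0.59 to -0.49), and Csf1 without Hevin replicate 2 (range -1.14 to -0.76). Border macrophage Csf2ra lost it with no filter (0.19) and without Hevin replicate 2 (range 0.21 to 0.29). The interaction called 60 genes and 57 to 126 without 1 library. The cause of these changes was not tested.

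The replicate numbers pair no animals by the labels. Same-numbered libraries deviated together (r = 0.566 over all kept, 0.558 over microglia-gated and 0.307 over border-macrophage-gated cells), a hint from the data and not the design. With the number as a replicate block 4533, 672 and 128 genes were called in these fits, and Csf1r (-0.37), Csf1 (-0.48) and Csf3r (-0.36) over all kept cells and Csf2ra in microglia-gated cells (0.37) passed.

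Thinning to 2000 UMIs left out the cells below that depth, all of them in Hevin replicate 1, where microglia-gated cells had a median of 2084 UMIs. Shares of cells with a UMI moved with depth. Thinned to 2000 UMIs they were, for microglia-gated, Apoe-high, MHC-class-II-high and endothelial cells, 99.6, 97.1, 73.7 and 58.9% for Csf1r, 1.82, 0.982, 0.439 and 2.48% for Csf1, 12.7, 26.4, 46.4 and 5.95% for Csf2ra, 10.6, 16.7, 28.9 and 2.43% for Csf2rb and 38.7, 24.0, 11 and 8.46% for Csf3r. Without thinning they were 99.6, 98.5, 93.7 and 86.5% for Csf1r, 3.14, 1.58, 1.58 and 14.7% for Csf1, 20.2, 39.5, 80.8 and 20.5% for Csf2ra, 17.3, 26.2, 57.9 and 8.29% for Csf2rb and 53.7, 36.8, 26.1 and 22.5% for Csf3r. With 2 libraries per group, a sum left with 1 library in a group is assumed to vary like the other group.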

Other observations

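Over 30 sums of a class in a library, each of at least 20 cells, the likeness of other genes to each member was described by Pearson's r of log2(CPM + 1). The sums share libraries and cell depth, and no p is given. Among 10199 genes the 3 most like Csf1r were Ltc4s (r = 0.964), C1qc (0.963) and Scamp2 (0.962). Those most like Csf2ra were Myo1g (0.913), Plbd1 (0.912) and Cd300lf (0.912), and those most like Csf2rb were Runx1 (0.940), Dennd4b (0.933) and Abcg3 (0.931). For Csf3r they were Pou2f2 (0.898), Susd3 (0.896) and Rps6ka1 (0.894). For Csf1 they were 2310061I04Rik (0.893), Src (0.891) and Fam216a (0.891). Among the members, Csf1r and Csf3r had r = 0.801, Csf2ra and Csf2rb 0.663, and Csf1 and Csf2ra -0.687 over the same 30 sums.

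In MHC-class-II-high cells Csf1r was 666 and 669 CPM in the Hevin libraries and 977 and 1080 CPM in the mCherry libraries, and P2ry12, the microglial gene, was 976 and 1008 CPM in the mCherry and 420 and 441 CPM in the Hevin libraries there. Csf2ra was between 341 and 382 CPM in all 4. These virus-group differences within MHC-class-II-high cells were not tested.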
